A study of Mus musculus with 15 samples.

Results

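The 3 primary tumours titled 4T1.2 were compared with the 3 titled 67NR, which are 6 of the 15 tumours of the series and were chosen by their titles alone. Both lines derive from the same mammary tumour of a BALB/c/C3H mouse. 67NR is labelled non-metastatic, whereas 4T1.2, a clone grown from a single cell of the 4T1 line, is labelled metastatic. Each line was grown in the 4th inguinal mammary fat pad of female Balb/c mice with an intact immune system, aged 6 to 8 weeks by the labels (the methods give a slightly older range), without drug treatment, and 1 tumour was taken from each mouse. The tumours were collected at 400 to 600 mm3. The other types, 3 tumours each, share the estimate of the spread: EMT6.5, labelled metastatic, in Balb/c mice, and EO771, labelled non-metastatic, and its lung-derived line EO771.LMB, labelled metastatic, in C57Bl/6 mice of the same sex, age and site. With 1 cell line per type, the metastatic label and all other differences between the lines cannot be told apart. RNA of a whole tumour holds carcinoma cells together with the host's immune cells, vessels and fibroblasts, so fewer cells of a type and less RNA per cell cannot be told apart either.

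The arrays, of the Affymetrix type Mouse Gene 1.0 ST, read a gene with probes spread along its exons. Values are log2 signals, on which a difference of 1 is a doubling. Of 35556 transcript clusters, the units of the array, 25440 had a symbol, and the brightest cluster stood for each of the 22008 genes. A gene was called higher or lower when limma gave an adjusted p under 0.05. The array medians lay between 6.32 and 6.44, and the values came without detection calls, so that no line could be drawn between a low signal and an absent one. Between tumours of the same type, Pearson's r across clusters was 0.983 to 0.984 in 4T1.2 and 0.986 to 0.987 in 67NR. Between the types it was 0.948 to 0.957.

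Cells of a tumour communicate through secreted ligands and the receptors that read them, and the extracellular matrix and its proteases decide where those ligands are held and how far cells can move. Families first described in the nervous system, such as semaphorins, slits and ephrins, steer the movement of vessels, immune cells and carcinoma cells as well. Transcription factors of the Hox, nuclear receptor and zinc finger families set which of these programmes a cell can run.

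In 4T1.2 tumours 2153 of the 22008 genes were called higher (9.78%) and 2412 lower (11.0%), so that 20.7% of all genes differed. The median log2 difference over all genes was 0.04. A difference of at least 1 was found for 519 of the higher and 559 of the lower genes, and a difference of at least 3 for 41 and 58. Among the families set up by molecular role, matrix proteins and proteases had the highest share called, at 30.3% of 459 genes, with 89 higher and 50 lower. Secreted signals followed at 27.0% of 397, with 76 higher and 31 lower. Receptors and adhesion molecules (25.9% of 690), transcription factors (24.1% of 696) and transporters and channels (21.7% of 628) had slightly more genes lower than higher. Carcinoma markers were of limited use for checking the labels. The luminal keratin gene Krt8 had signals of 9.93, 10.20 and 10.07 in 4T1.2 and 9.60, 9.90 and 9.98 in 67NR (adjusted p = 0.27). The epithelial adhesion genes Cdh1, at means of 6.32 and 6.23, and Epcam, at 5.77 and 5.98, sat near or under the array medians in both types.

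Some of the widest gaps belonged to genes with near-identical copies in the genome, whose probes can read several of them. Mela, a gene of endogenous retroviral origin, gave 12.68, 12.58 and 12.39 in 4T1.2 tumours and 5.13, 5.17 and 6.28 in 67NR tumours. This was a 130-fold difference (log2 difference 7.02, SE 0.24, adjusted p = 5.3e-11 from limma). The 67NR tumours were the low ones, since Mela averaged 12.54 in EMT6.5, 12.88 in EO771 and 12.61 in EO771.LMB tumours. The testis-expressed gene Ott, for which the array holds 9 clusters, went the other way, at 4.91, 5.04 and 4.96 in 4T1.2 against 10.57, 10.65 and 10.49 in 67NR. Luzp4, known in human as a testis antigen found in tumours, was likewise low in 4T1.2 (4.81, 4.66 and 4.96 against 10.10, 10.12 and 10.34). For Ott the other types resembled 67NR, with means of 9.19 in EMT6.5 and 10.39 in EO771.

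Among cytokines, Tslp and interleukin 1 were higher in 4T1.2, and Il7, Il15 and Csf1 lower. Of 48 interleukins and gp130 cytokines, 9 were higher and 2 lower, a share of 22.9% that is near the 20.7% of all genes. Tslp, an epithelial cytokine that activates dendritic cells and type 2 immunity, had signals of 10.00, 10.60 and 10.57 in 4T1.2 and 6.59, 6.28 and 6.63 in 67NR. The difference was 14.9-fold (log2 difference 3.89, SE 0.18, adjusted p = 1.9e-09 from limma). That the tumour types did not overlap was a condition of choosing this gene. Its receptor chains did not pass, with log2 differences of -0.19 for Crlf2 (adjusted p = 0.34) and -0.86 for Il7r (adjusted p = 0.15). The 67NR tumours were spread from 7.78 to 9.78 for Il7r, and without 67NR replicate 3 the difference was -1.35 and passed (adjusted p = 0.011).

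Interleukin 1, an early trigger of inflammation, was higher together with the receptors that bind it. Il1a gave 7.82, 7.94 and 7.96 in 4T1.2 against 5.73, 5.02 and 5.57 in 67NR (log2 difference 2.46, SE 0.31, adjusted p = 5.4e-05). Il1b was higher by 1.54 (adjusted p = 0.0016 from limma). Both the signalling receptor gene Il1r1 (2.34, adjusted p = 1.4e-07) and the decoy receptor gene Il1r2 (2.22, adjusted p = 9e-06) were higher, whereas the antagonist gene Il1rn had a log2 difference of -0.07 (adjusted p = 0.77). Il23a, which encodes the p19 chain of interleukin 23, was at 7.52, 7.63 and 7.78 in 4T1.2 and at 5.22, 5.30 and 5.12 in 67NR, a 5.38-fold difference. All 4T1.2 tumours lay above all 67NR tumours for each of these called genes. The same lack of overlap, in either direction, held for 4484 of all 4565 called genes.

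Receptor genes for interleukins 33 and 18, of the same cytokine family, were lower. Il1rl1, the receptor gene for interleukin 33, had signals of 6.55, 6.45 and 6.40 in 4T1.2 and 10.70, 11.03 and 11.56 in 67NR. It was lower by 24.7-fold (log2 difference -4.63, SE 0.19, adjusted p = 3e-10 from limma), while its ligand Il33 had a log2 difference of 0.08 (adjusted p = 0.87). Il18rap, the accessory chain of the interleukin 18 receptor, was 8.6-fold lower, at 5.71, 5.82 and 6.31 against 9.03, 9.14 and 8.99. Il18 itself did not pass (0.32, adjusted p = 0.41). The lymphocyte growth factor genes Il7 and Il15 fell by 1.06 and 1.14 on the log2 scale, and Csf1, the growth factor of macrophages, fell by 1.15 (adjusted p = 0.00025).

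Among 38 chemokines 6 were higher and 4 lower (26.3%, beside the 20.7% of all genes). Cxcl12, which retains and attracts cells bearing CXCR4, gave 6.39, 6.31 and 6.06 in 4T1.2 and 8.93, 8.96 and 9.03 in 67NR. It was 6.58-fold lower (log2 difference -2.72, SE 0.22, adjusted p = 6.3e-07). Its receptor genes Cxcr4 (0.42, adjusted p = 0.13) and Cxcr7 (-0.47, adjusted p = 0.25) did not pass. Cxcl2, an attractant of neutrophils, was higher by 1.54 (adjusted p = 0.0019 from limma), whereas Cxcl1 at 0.63 and Cxcl5 at -0.35 did not pass. Csf3, the neutrophil growth factor gene, had low signals throughout, at 5.11, 5.33 and 5.53 in 4T1.2 and 4.79, 4.80 and 4.44 in 67NR, yet the types did not overlap (log2 difference 0.65, adjusted p = 0.0033). Lcn2, which encodes the iron-scavenging protein lipocalin 2, was at 10.17, 10.08 and 10.71 against 6.76, 6.91 and 6.49, a 12.1-fold difference.

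**Figure D1:**
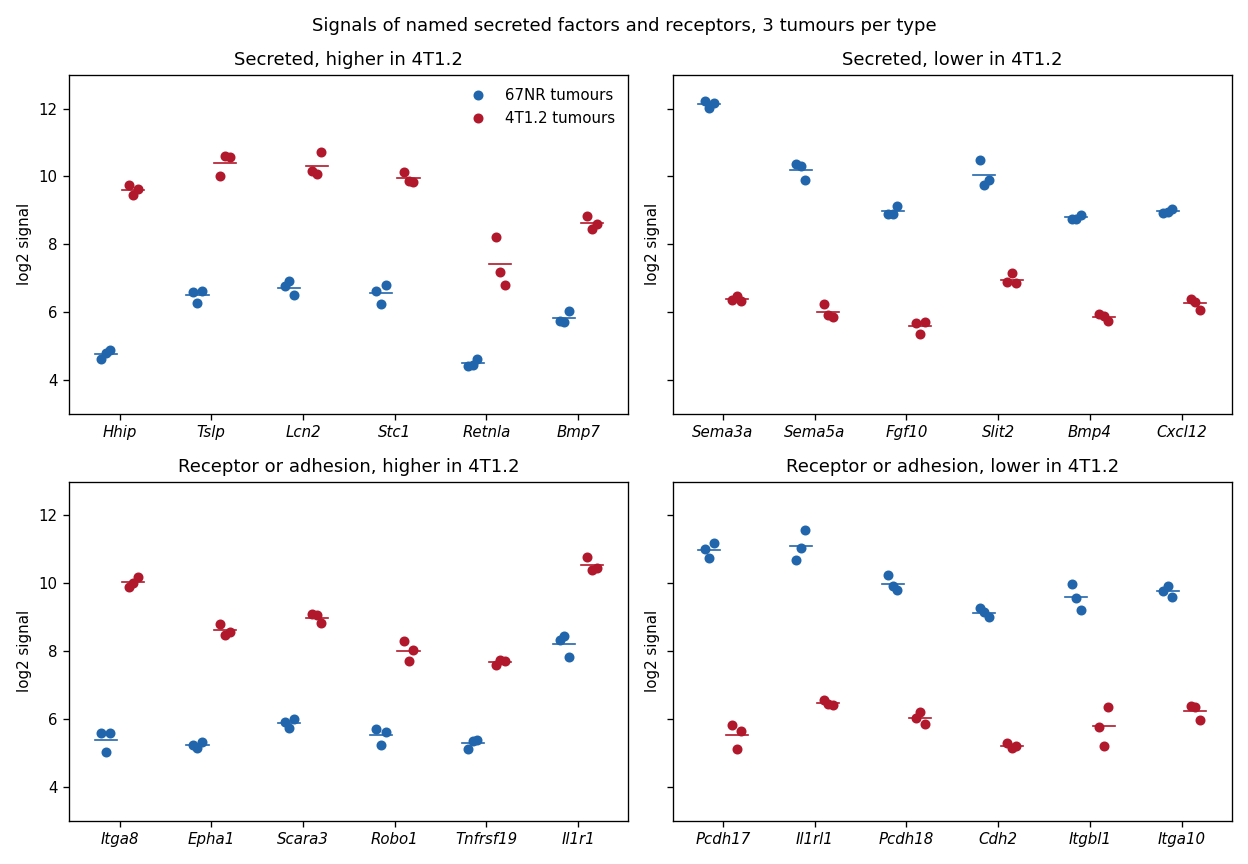
Log2 signals (vertical axis) of 24 named genes for secreted factors (upper row) and receptors or adhesion molecules (lower row). Each point is 1 tumour (67NR in blue, 4T1.2 in red) and bars are means of 3 tumours. Most of the genes drawn were chosen among those whose tumour types did not overlap, so the gaps are not a finding. Over all genes the types did not overlap for 35.3%. Tslp lay at 10.00 to 10.60 in 4T1.2 and 6.28 to 6.63 in 67NR.

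Bone morphogenetic proteins (BMPs), which act through type I and II receptors and induce Id genes, differed in direction between 2 ligands. Bmp7 had signals of 8.84, 8.46 and 8.59 in 4T1.2 against 5.74, 5.72 and 6.02 in 67NR, a 6.97-fold increase (log2 difference 2.80, SE 0.20, adjusted p = 1.4e-07 from limma). Bmp4 showed the reverse, at 5.94, 5.88 and 5.73 against 8.74, 8.76 and 8.87, and was 7.66-fold lower (-2.94, SE 0.10, adjusted p = 5.8e-11). Bmper, which encodes a secreted BMP-binding protein, was lower by 5.79-fold. The receptor genes Bmpr1a (0.57) and Bmpr2 (0.53) were higher, and the target genes Id1 (-1.38, adjusted p = 1.3e-05) and Id2 (-0.81, adjusted p = 0.0032) were lower. Over the family of 33 TGF-beta, BMP and activin ligands, 6 were higher and 1 lower (21.2%, near the share of all genes). The higher ones included Tgfb2 (1.63) and Tgfb3 (0.98), while Tgfb1 did not pass (0.30, adjusted p = 0.18).

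Hedgehog ligands signal by lifting the block that patched receptors place on smoothened, and their reach is set by co-receptors and by the decoy Hhip. Besides Hhip, whose log2 signals were 9.74, 9.44 and 9.62 in 4T1.2 and 4.62, 4.78 and 4.89 in 67NR, the co-receptor gene Cdon was higher (log2 difference 2.27, SE 0.13, adjusted p = 1.1e-08). The related co-receptor gene Boc was lower (-0.90, adjusted p = 0.00052 from limma). Of the ligands, Dhh was higher at a low signal (5.80, 5.70 and 5.73 against 5.05, 5.10 and 5.25), and neither Shh (0.04, adjusted p = 0.86) nor Ihh (-0.33, adjusted p = 0.31) passed. The pathway's readout genes Ptch1 (-0.34, adjusted p = 0.29) and Gli1 (-0.13, adjusted p = 0.54) did not pass either. Without 67NR replicate 3, whose Ptch1 signal of 8.69 stood above the 7.83 and 7.68 of the other 67NR tumours, the Ptch1 difference was -0.03. Gli2 fell by 0.86. Of 10 hedgehog targets 1, Hhip itself, was higher and 3, all forkhead genes, were lower (40.0%, beside the 20.7% of all genes).

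Wnt ligands stabilise beta-catenin, which switches on Axin2 as a feedback inhibitor. All 6 called genes of 19 Wnt ligands were higher in 4T1.2 (31.6%, beside the 20.7% of all genes), among them Wnt10a (7.50, 7.29 and 6.98 against 5.92, 5.81 and 6.10) and Wnt6 (1.01, adjusted p = 0.00027). The list means were low, at 5.81 to 5.85 in 4T1.2 and 5.5 to 5.63 in 67NR, under the array medians. With only clusters above the median signal tested, the count of called Wnt ligands was 0. Sfrp1, a secreted Wnt antagonist, was higher by 2.35 (SE 0.20, adjusted p = 1.1e-06), and Lgr4, a receptor that strengthens Wnt signals, by 1.64. Axin2 nevertheless gave 5.72, 5.64 and 5.58 in 4T1.2 and 7.73, 7.81 and 8.15 in 67NR, a 4.75-fold decrease (log2 difference -2.25, SE 0.12, adjusted p = 5.6e-09 from limma). Of 20 Wnt targets 4 were higher and 1, Axin2, was lower, a share of 25.0%.

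Growth factors for fibroblasts, epithelium, nerves and vessels changed in both directions. Fgf10, a mesenchymal ligand for the epithelial receptor FGFR2, had signals of 5.68, 5.36 and 5.70 in 4T1.2 and 8.90, 8.89 and 9.13 in 67NR. It was 10.5-fold lower (log2 difference -3.40, SE 0.13, adjusted p = 1.6e-10). Fgf1, which binds all FGF receptors, was higher, at 7.62, 8.12 and 8.20 against 5.79, 5.66 and 5.50. Fgfr1 fell by 1.14 and Fgfr2 rose by 0.78. Gdnf, a glial-derived neurotrophic factor, fell by 1.42, and its receptor genes Ret (-0.02) and Gfra1 (-0.03) did not pass.

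Ligands of the EGF receptor and of blood vessel receptors shifted between family members. Hbegf (1.17), Tgfa (1.04) and their receptor gene Egfr (0.77, adjusted p = 0.0013 from limma) were higher, while Nrg1, a ligand of ERBB3, was lower (-1.23, adjusted p = 6.6e-05). Erbb3 itself had a log2 difference of -0.18 (adjusted p = 0.43). Angpt1, which stabilises vessels, gave 6.25, 7.23 and 7.24 in 4T1.2 and 4.71, 4.65 and 4.70 in 67NR (2.22, adjusted p = 6e-06), and the placental growth factor gene Pgf was higher by 1.56 with its receptor Flt1 (0.94). The lymphatic growth factor genes Vegfc (-1.34, adjusted p = 0.0017) and Figf (-1.68, adjusted p = 8.5e-05) were lower, and their receptor gene Flt4 did not pass (0.21, adjusted p = 0.29). Of 46 peptide hormones 9 were higher and none lower (19.6%, near the 20.7% of all genes), including Insl6 (2.37), a relaxin-like hormone of the testis, and Ucn2 (1.41), a ligand of the CRH receptor family.

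Axon guidance ligands and their receptors differed widely between the tumour types. Semaphorins signal through plexins, with neuropilins as co-receptors for class 3 members, and slits through ROBO receptors. Of 20 semaphorins 5 were higher and 6 lower (55.0%, beside the 20.7% of all genes). Sema5a had signals of 6.23, 5.92 and 5.84 in 4T1.2 and 10.36, 10.31 and 9.89 in 67NR, an 18.2-fold decrease (log2 difference -4.19, SE 0.16, adjusted p = 1.5e-10 from limma). Sema3c (-1.02) was lower as well, next to Sema3a (-5.77), and so were the neuropilin genes Nrp1 (-1.37, adjusted p = 5.7e-05) and Nrp2 (-1.74, adjusted p = 1.9e-07) and the plexin genes Plxna2 (-0.96) and Plxna3 (-1.05), through which class 3 semaphorins act. Sema3f, a class 3 ligand of neuropilin 2, went up, with 8.70, 8.87 and 8.95 against 7.10, 7.10 and 7.29. Sema6a gave 8.89, 8.85 and 8.74 against 6.71, 5.96 and 6.10 (2.57, adjusted p = 4.4e-07). Sema4c was higher by 1.85 together with Plxnb1 (1.23), which encodes a receptor for class 4 members.

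Slit2 and its receptor Robo1 moved in opposite directions. Slit2 gave 6.88, 7.14 and 6.86 in 4T1.2 and 10.49, 9.76 and 9.91 in 67NR (8.54-fold lower, log2 difference -3.09, SE 0.19, adjusted p = 3.9e-08). Robo1 gave 8.30, 7.72 and 8.02 against 5.71, 5.24 and 5.60 (5.65-fold higher, log2 difference 2.50, SE 0.18, adjusted p = 2.3e-07 from limma). Slit3 was higher by 0.85, Ntn1, which encodes the guidance cue netrin 1, fell by 1.34, and its receptor gene Unc5b rose by 0.99. Of 8 ephrins 3 were higher and 1, Efnb2, was lower (8.20, 8.15 and 7.70 against 10.78, 10.76 and 10.64). Of 14 Eph receptors 1 was higher and 2 were lower, a share of 21.4% that is near the 20.7% of all genes. The higher one, Epha1, was 10.5-fold up (8.80, 8.48 and 8.57 against 5.22, 5.14 and 5.31, adjusted p = 2.3e-09 from limma). Efna5, a ligand of EphA receptors, was higher by 1.30 (adjusted p = 0.00038).

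**Figure D2:**
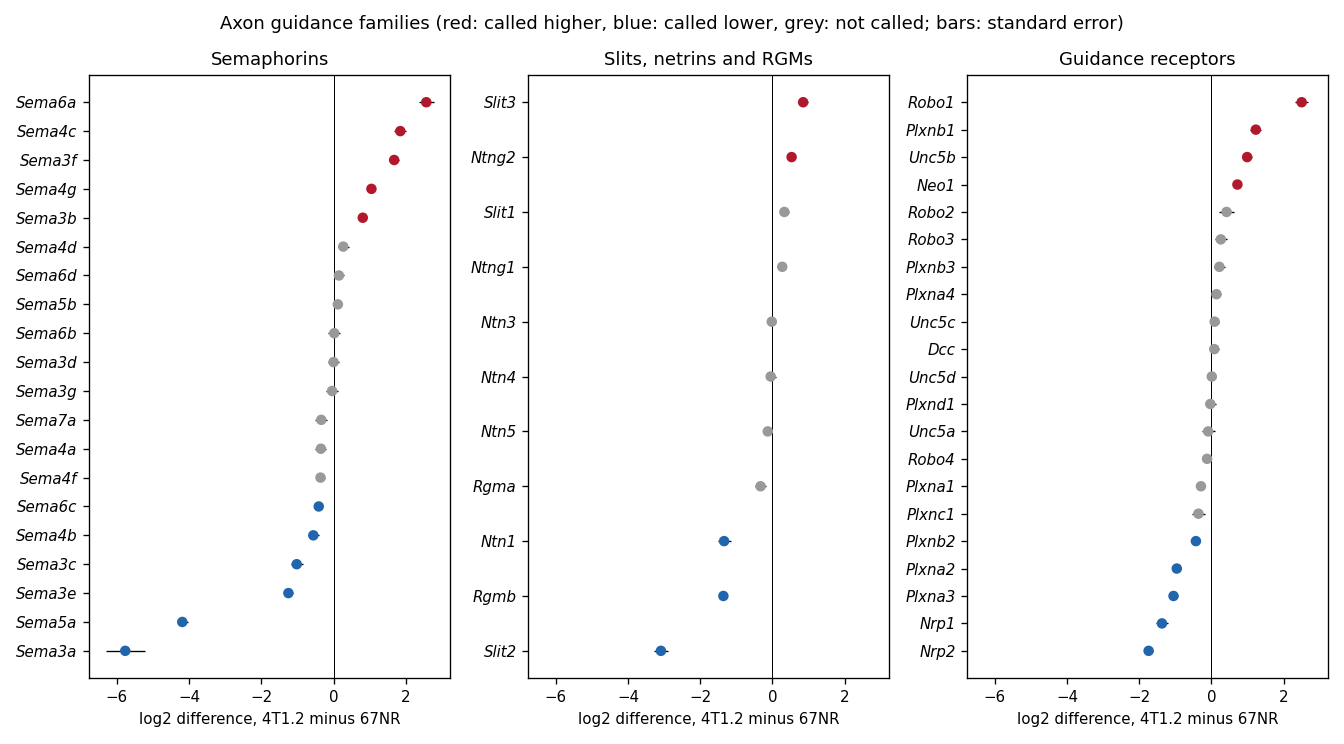
Log2 differences of 4T1.2 minus 67NR (horizontal axes) for 20 semaphorins, 11 slits, netrins and RGMs and 21 guidance receptors, with standard errors as bars. Red points were called higher, blue points called lower and grey points did not pass, and the receptors run from Nrp2 at -1.74 to Robo1 at 2.50.

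Among matrix genes, more glycoproteins and crosslinking enzymes were called higher than lower in 4T1.2. Of 77 matrix glycoproteins 25 were higher and 7 lower (41.6%, beside the 20.7% of all genes), and 45 did not pass. Those higher included chains of laminin, the main basement membrane protein (Lama4 1.62 and Lama5 1.37), and Tnc (2.23, adjusted p = 3.4e-06 from limma), which encodes the wound matrix protein tenascin C. Among 18 crosslinking enzymes 7 were higher and 2 lower. The collagen prolyl hydroxylase gene P4ha2 gave 8.84, 8.84 and 8.73 against 6.41, 6.48 and 6.41 (2.37, adjusted p = 2.7e-07), and the lysyl oxidase gene Lox (1.03) and the transglutaminase gene Tgm2 (1.51) were higher too.

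Of 34 proteoglycans and hyaluronan synthases 4 were higher and 8 lower (35.3%, beside the 20.7% of all genes). The other 22 did not pass, and the median log2 difference was 0.04. Small leucine-rich proteoglycans, which bind collagen fibrils and growth factors, differed in both directions. Aspn, the gene for asporin, had signals of 8.35, 8.23 and 7.81 in 4T1.2 and 11.85, 11.83 and 11.67 in 67NR, a 12.6-fold decrease (log2 difference -3.66, SE 0.29, adjusted p = 4.6e-07 from limma). Prelp was 11.2-fold lower (7.69, 7.33 and 7.35 against 11.14, 10.91 and 10.78). Ogn (-3.14), Omd (-1.84) and Fmod (-1.10) were lower as well. Lum, the gene for lumican, was higher, at 10.57, 9.97 and 9.98 against 8.47, 9.46 and 8.60 (1.33, adjusted p = 0.017 from limma), and Bgn (0.20, adjusted p = 0.48) and Dcn (0.49, adjusted p = 0.11) did not pass. Hyaluronan, the large glycan of loose matrix, is made by Has enzymes. Has2 was at 10.85, 10.53 and 10.40 against 7.25, 6.79 and 6.85, a 12.4-fold increase (3.63, SE 0.16, adjusted p = 6.2e-10), and Has1 did not pass (-0.26, adjusted p = 0.088).

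Proteases and their inhibitors differed in both directions. Of 28 MMPs, which cut matrix proteins, and their TIMP inhibitors 10 were higher and 1 lower (39.3%, beside the 20.7% of all genes). The collagenase gene Mmp13 gave 9.31, 9.88 and 10.33 in 4T1.2 and 6.35, 6.25 and 6.63 in 67NR (3.43, adjusted p = 2.3e-06). The aggrecan-cutting protease gene Adamts5 was 12.6-fold lower (7.48, 6.89 and 6.5 against 10.79, 10.51 and 10.52), and Adamts1 fell by 2.35 (adjusted p = 4.8e-08 from limma). Plau, which encodes the plasminogen activator urokinase, was higher by 1.44, and so was its inhibitor Serpine2. Serpine2 gave 9.67, 11.01 and 10.53 in 4T1.2 and 6.95, 7.25 and 6.77 in 67NR (10.6-fold, adjusted p = 3e-07). The surface protease gene St14, for matriptase, was higher by 0.83 with its inhibitors Spint1 (2.46, adjusted p = 2.2e-08) and Spint2 (1.25). Granzymes, the proteases of cytotoxic cells, were lower, with 7 of 11 called (63.6%) and a median log2 difference of -1.71. The count was 5 without 4T1.2 replicate 2 and without 67NR replicate 2. Gzma gave 6.30, 6.51 and 6.26 against 7.83, 8.35 and 8.03 (-1.71, adjusted p = 1.2e-05). Gzmd ranged widely within 4T1.2, at 6.64, 8.01 and 9.61, yet stayed under the 11.39, 11.68 and 11.57 of 67NR (-3.46, SE 0.77, adjusted p = 0.0055). The difference for Gzmd ran from -4.22 to -2.73 when each tumour was left out.

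Adhesion receptors also moved in both directions. Pcdh17, a protocadherin of neurons, had signals of 5.83, 5.11 and 5.65 in 4T1.2 and 11.01, 10.74 and 11.19 in 67NR. It was 43.8-fold lower (log2 difference -5.45, SE 0.24, adjusted p = 7.5e-10 from limma), and Pcdh18 was 15.6-fold lower. Of 36 cadherins 6 were lower and none higher, a share of 16.7% that is under the 20.7% of all genes. Their median log2 difference was 0.08. Of 27 integrins 8 were higher and 5 lower (48.1%). The laminin and collagen receptor chains Itga6 (10.83, 10.77 and 10.95 against 9.18, 8.77 and 9.21) and Itga2 (2.26, adjusted p = 8.6e-07) and the vitronectin receptor chain Itgb3 (1.69) were higher. The collagen receptor chain Itga10 was 11.6-fold lower (6.37, 6.36 and 5.96 against 9.78, 9.93 and 9.60), and Itgb8, which activates latent TGF-beta, fell by 1.70. The shared chain Itgb1 had a log2 difference of -0.06 (adjusted p = 0.77). Flrt2, a repulsive adhesion protein, fell by 3.46, while Scara3, a scavenger receptor, was higher (9.08, 9.06 and 8.83 against 5.91, 5.73 and 6.01). The adhesion receptors Gpr124, of brain vessels, and Gpr126, of Schwann cells, went opposite ways, at -2.72 and 2.14.

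Several transcription factor genes had wide gaps. Rorb, an orphan nuclear receptor of retina and brain, gave 5.25, 4.97 and 5.42 in 4T1.2 and 10.45, 10.40 and 10.31 in 67NR, a 36.1-fold decrease (log2 difference -5.17, SE 0.12, adjusted p = 8.9e-13 from limma). Zfpm2, a cofactor of GATA proteins, was 16.8-fold lower, and the limb mesenchyme factor Prrx2 was 14-fold lower (5.91, 6.14 and 5.92 against 9.84, 9.89 and 9.68). Vgll3 (-3.37), a TEAD cofactor, Bnc2 (-3.36) and Snai2 (-2.04), a repressor of epithelial genes, fell too. Osr2, a zinc finger factor of palate and limb, was 8.23-fold higher (8.34, 7.74 and 7.39 against 4.51, 4.68 and 5.15).

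Ahr, the ligand-activated receptor for dioxin and tryptophan products, had signals of 10.76, 10.46 and 10.59 in 4T1.2 and 8.00, 7.84 and 7.75 in 67NR, a 6.66-fold increase (log2 difference 2.74, SE 0.13, adjusted p = 2.3e-09). Its partner gene Arnt fell by 1.07 (adjusted p = 1.1e-06 from limma). Among genes known to be induced by the receptor, looked up after their values were seen, Cyp1b1 was higher by 3.83 (means 10.17 and 6.34, SE 0.21, adjusted p = 8.9e-09), whereas Cyp1a1 (0.23, adjusted p = 0.25), Tiparp (0.05, adjusted p = 0.83) and the repressor Ahrr (-0.05, adjusted p = 0.81) did not pass. Arntl2, a clock gene of the same protein family, was higher by 1.72.

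Hox genes, which lie in 4 chromosomal clusters and record a cell's position along the body axis, changed by cluster. Of 11 measured Hoxa genes 6 were higher and none was lower. Hoxa2 gave 7.76, 8.20 and 8.63 in 4T1.2 against 5.73, 5.85 and 6.04 in 67NR (log2 difference 2.32, SE 0.18, adjusted p = 3e-07 from limma), and Hoxa5 gave 10.27, 9.18 and 9.34 against 7.58, 7.69 and 7.55 (1.99, adjusted p = 2e-05). Of 10 Hoxb genes none was higher and 5 neighbours, Hoxb4 to Hoxb8, were lower, by -0.78 for Hoxb4, -1.22 for Hoxb5, -1.65 for Hoxb6, -0.88 for Hoxb7 and -0.83 for Hoxb8. The Hoxc cluster had Hoxc8 higher (0.76) and Hoxc5 (-0.80) and Hoxc6 (-1.14) lower, and none of 9 Hoxd genes passed. Cluster medians were 0.61 for Hoxa, -0.56 for Hoxb, 0.03 for Hoxc and 0.15 for Hoxd. Neighbouring Hox genes share regulatory elements and transcripts, so they are not independent of one another.

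**Figure D3:**
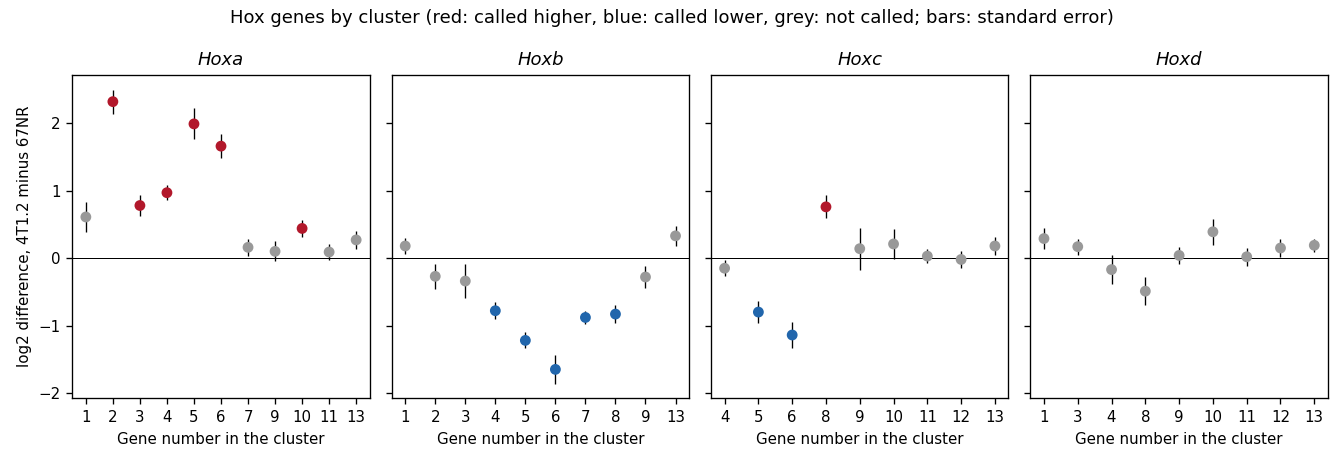
Log2 differences of 4T1.2 minus 67NR (vertical axis) for the measured Hox genes, ordered along each of the 4 clusters by gene number (horizontal axes), with standard errors as bars. Red points were called higher, blue points lower and grey points did not pass, with 6 red points in Hoxa and 5 blue points in Hoxb.

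Transporters and enzymes of small-molecule metabolism showed single large differences rather than a common direction. Slc7a11, the cystine transporter that feeds glutathione synthesis, gave 9.61, 9.25 and 9.46 in 4T1.2 and 5.85, 6.00 and 6.24 in 67NR. It was 10.6-fold higher (log2 difference 3.41, SE 0.30, adjusted p = 1.8e-06 from limma), while its partner chain Slc3a2 did not pass (0.02, adjusted p = 0.95). The chloride channel gene Ano1 (2.83), the cation channel gene Trpm3 (2.76) and the prostaglandin carrier gene Slco2a1 (2.29) were higher. Among 50 ABC transporters 3 were higher and 13 lower (32.0%, beside the 20.7% of all genes). The lower ones were led by Abca5 (5.32, 5.45 and 5.10 against 8.61, 8.24 and 8.27) and Abca9 (-2.30). The water channel gene Aqp1 was 8.19-fold lower (6.59, 6.93 and 6.78 against 10.11, 9.76 and 9.53), and the sodium-calcium exchanger gene Slc24a3 fell by 3.12. Elovl7, which lengthens fatty acids, was at 10.09, 10.29 and 10.34 against 6.31, 7.04 and 6.02, a 13.8-fold increase. Ephx1, an epoxide-detoxifying enzyme, was 11.9-fold lower (6.77, 6.48 and 6.90 against 10.34, 10.41 and 10.12). Nt5e, which makes adenosine outside the cell, was higher by 2.35.

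Retinoid genes, which carry and oxidise vitamin A, had 11 of 23 called higher, 1 lower and 11 not passing. The share called was 52.2%, beside the 20.7% of all genes, and the median log2 difference was 0.32. Crabp1, a carrier of retinoic acid, gave 10.60, 10.53 and 10.25 in 4T1.2 and 7.79, 8.56 and 7.82 in 67NR (5.29-fold, log2 difference 2.40, SE 0.21, adjusted p = 1.6e-06 from limma). The retinoic acid synthase gene Aldh1a2 was higher (2.00, adjusted p = 4.4e-06), and Dhrs3, which returns retinal to retinol, was lower (-1.30, adjusted p = 0.00015). Genes of prostaglandin synthesis split, with Ptgs2, the inducible cyclooxygenase, higher by 1.03 and Ptgs1, the constitutive one, lower (-0.96, adjusted p = 1e-05).

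Lists of pathway genes were described by how many members were called, beside the 20.7% of all genes. The list of 37 interferon-induced genes had 23 higher and none lower, a share of 62.2%, with a median log2 difference of 0.76. The mean signal over the list was 8.70 to 8.83 in 4T1.2 tumours and 7.94 to 8.04 in 67NR. Herc5, which attaches the ubiquitin-like protein ISG15, gave 10.88, 11.49 and 11.56 against 9.48, 9.29 and 9.66 (log2 difference 1.83, SE 0.17, adjusted p = 2.3e-06 from limma). The double-stranded RNA sensor Ifih1 (1.46), the nucleic acid sensor Zbp1 (1.50) and Oasl2 (1.68) were higher, as were the transducer genes Stat2 (0.76), Irf9 (0.73) and Irf7 (0.55). The interferon gene Ifnb1, looked up after its values were seen, had means of 5.04 and 4.89 (adjusted p = 0.64).

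Interferon signalling acts on promoters through the interferon-stimulated response element, searched here as GAAA, any 2 bases and GAAA, or the reverse complement TTTC, any 2 bases and TTTC, in windows of 300 bases (250 before to 50 after the start, RefSeq, GRCm38.p6). The motif was in 3.49% of 27025 promoters and in 55.6% of the 27 promoters found for the list. It was in 11 of the 18 belonging to members called higher and in 4 of the 9 others. A match describes letters, not a bound site, and the motif was searched after the values had been seen. Stretches of 100 bases upstream of 3 called members are shown to make the element visible, with matches in capitals. Cxcl10 (chr5:92349040-92349139, minus strand), a lymphocyte attractant, was higher by 1.24 (adjusted p = 0.0022 from limma). Oas1a (chr5:120907526-120907625, minus strand), a sensor that activates RNase L, was higher by 1.17 and holds a pair of overlapping matches. Gbp2 (chr3:142620559-142620658, plus strand), a guanylate-binding defence protein, was higher by 1.12 and holds the reverse complement.
Cxcl10: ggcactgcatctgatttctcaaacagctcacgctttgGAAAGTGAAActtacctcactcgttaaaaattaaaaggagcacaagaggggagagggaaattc
Oas1a: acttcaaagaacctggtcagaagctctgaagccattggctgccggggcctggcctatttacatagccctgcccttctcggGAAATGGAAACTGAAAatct
Gbp2: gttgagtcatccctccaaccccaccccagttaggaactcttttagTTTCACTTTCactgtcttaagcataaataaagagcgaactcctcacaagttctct

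Hypoxia-inducible genes had 21 of 33 members higher and none lower (63.6%), with a median of 0.62 and list means of 8.96 to 9.18 in 4T1.2 against 8.09 to 8.22 in 67NR. Car12, a carbonic anhydrase that buffers acid outside the cell, gave 8.32, 8.23 and 8.29 in 4T1.2 and 4.94, 4.81 and 5.11 in 67NR. It was 10-fold higher (log2 difference 3.33, SE 0.11, adjusted p = 4.2e-11 from limma). Ero1l (1.69), an oxidase of protein folding, and Ndrg1 (1.52) were higher too. Vegfa, the angiogenic factor, did not pass, at 8.29, 8.35 and 8.47 against 8.21, 7.97 and 8.22 (0.24, adjusted p = 0.14). The core hypoxia motif ACGTG or its reverse complement CACGT was in 62.5% of 24 list promoters and in 19.7% of all promoters. The list was chosen for its link to hypoxia, so that gap does not bear on the tumour types. The motif was in 9 of the 13 promoters of members called higher and in 6 of the 11 others. A match describes letters, not a bound site.

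Glycolysis genes, which share members with the hypoxia list, had 11 of 25 higher and none lower (44.0%, beside the 20.7% of all genes). Their median was 0.34. The hexokinase gene Hk2 gave 8.44, 8.39 and 8.25 against 7.10, 7.29 and 7.00 (1.23, adjusted p = 1.4e-05 from limma), and the muscle phosphofructokinase gene Pfkm was higher by 1.61. Of the lactate dehydrogenase genes, Ldhb was higher by 1.67, while Ldha had a log2 difference of 0.16 (adjusted p = 0.54), and 0.38 without 4T1.2 replicate 1 (adjusted p = 0.045). Among 26 MAPK feedback genes and targets 11 were higher and 2 lower, among them Etv4 (0.70), and among 32 NF-kB targets 10 were higher and 1 lower. YAP and TAZ targets went both ways, with 6 of 24 higher and 9 lower (62.5%). Cyr61 (-0.65) and Ankrd1 (-0.77), both standard readouts, were lower.

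The p53 targets, ribosomal protein and cholesterol synthesis lists leaned downwards in 4T1.2. Of 26 p53 targets 2 were higher and 11 lower, with a median of -0.37 and list means of 7.48 to 7.62 against 7.89 to 7.93. The death receptor gene Eda2r gave 5.32, 5.14 and 5.26 against 6.97, 7.21 and 7.09 (log2 difference -1.85, SE 0.13, adjusted p = 1.5e-07 from limma). The cell cycle inhibitor gene Cdkn1a fell by 1.34 and the cell death gene Bax by 1.40. The transcript of p53 itself, Trp53, was lower, at 9.45, 9.25 and 9.05 against 10.23, 10.53 and 9.94 (-0.99, adjusted p = 0.00029). The carcinoma cells of both lines are known to lack p53 protein. Of 33 ribosomal protein genes none was higher and 13 were lower (39.4%), and without 67NR replicate 2 the count was 8. Fdps gave 7.89, 6.37 and 7.75 against 8.89, 9.48 and 9.05 (-1.80, adjusted p = 0.0028 from limma). It was among the 8 of 24 cholesterol synthesis genes called lower (33.3%). That count was 5 without 4T1.2 replicate 2 and without 67NR replicate 1, 4 without 4T1.2 replicate 3 and 2 without 67NR replicate 2.

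**Figure D4:**
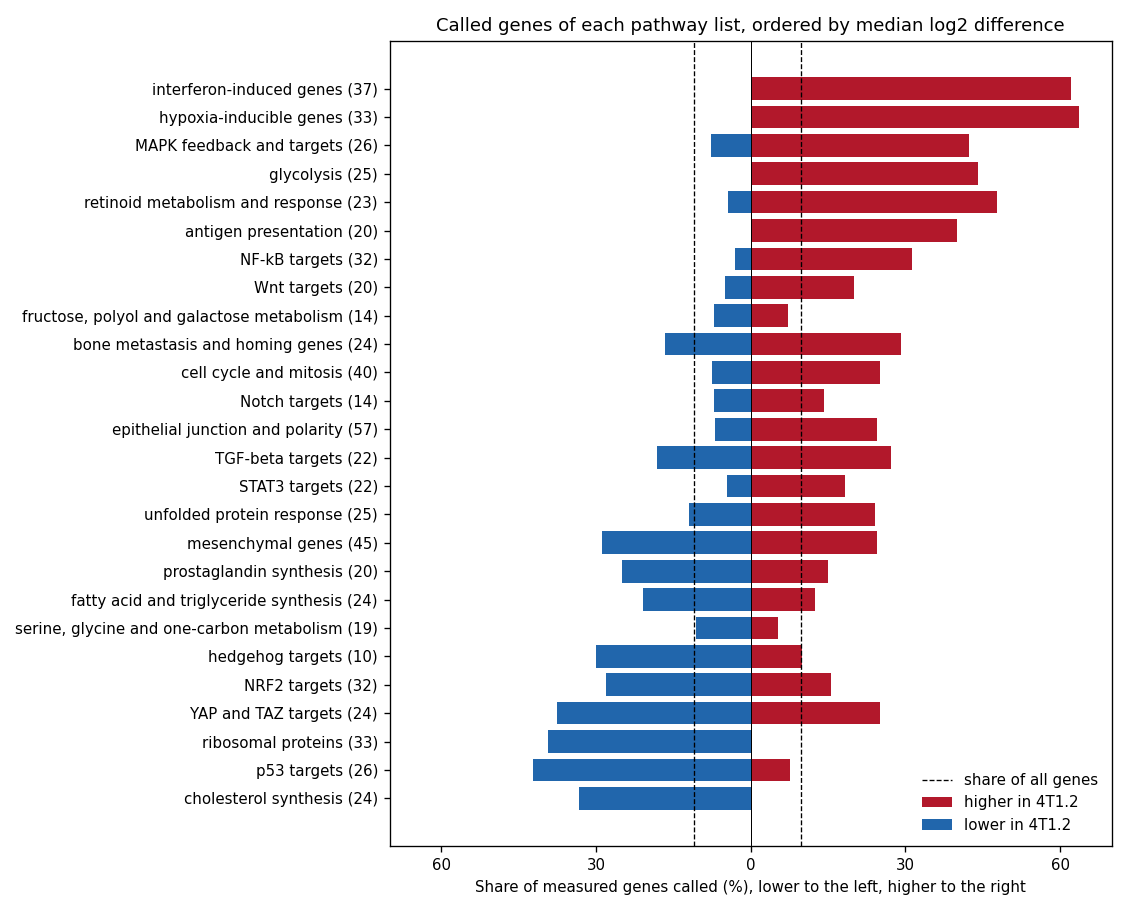
Share of each pathway list's measured genes that were called (horizontal axis, in percent), lower in 4T1.2 to the left and higher to the right. Lists are ordered by median log2 difference with their number of genes in brackets, and dashed lines mark the shares of all genes, 11.0% and 9.78%. Interferon-induced and hypoxia-inducible genes reach 62.2% and 63.6% with no member lower.

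Epithelial junction and polarity genes had 14 of 57 members higher and 4 lower (31.6%, beside the 20.7% of all genes, median 0.08). Mesenchymal genes had 11 of 45 higher and 13 lower (53.3%, median 0.01). Spint2 gave 8.61, 7.97 and 8.57 in 4T1.2 and 7.38, 7.13 and 6.90 in 67NR (1.25, adjusted p = 0.00038 from limma), Lsr, a tricellular junction gene, gave 7.86, 7.63 and 7.68 against 6.38, 6.5 and 6.42 (1.29), and the simple keratin gene Krt7 was higher by 0.73. The keratin gene Krt18 had signals of 10.60, 10.33 and 10.18 against 6.98, 6.66 and 6.12, a 13.8-fold difference. The epithelial members called lower were Macc1 (-1.8), Dsc2 (-1.31), Cldn1 (-1.28) and Cgn (-0.81). Of the mesenchymal genes, Tnc (2.23), Fap (1.69), Dpt (1.23) and Postn (1.11) were among those called higher. Without 4T1.2 replicate 1 the Dpt difference was 0.74 and did not pass (adjusted p = 0.12 from limma). The 13 called lower included Cdh2 (-3.93) and Prrx2 (-3.81). Zeb1, a repressor that binds E-boxes, was at 7.97, 7.50 and 7.92 against 10.17, 10.23 and 10.25 (-2.42, adjusted p = 2.8e-09), whereas Zeb2 did not pass (-0.23, adjusted p = 0.098). The E-box CACCTG or its reverse complement CAGGTG was in 20.0% of all promoters, in 64.5% of 31 list promoters, in 6 of the 8 belonging to members called higher and in 14 of the 23 others. The upstream stretches of the called members Krt18 (chr15:102027966-102028065, plus strand), Krt7 (chr15:101412303-101412402, plus strand), Lsr (chr7:30973620-30973719, minus strand) and Spint2 (chr7:29281999-29282098, minus strand) show where it lies, in capitals.
Krt18: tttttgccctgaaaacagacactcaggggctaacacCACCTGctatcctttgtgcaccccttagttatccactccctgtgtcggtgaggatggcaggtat
Krt7: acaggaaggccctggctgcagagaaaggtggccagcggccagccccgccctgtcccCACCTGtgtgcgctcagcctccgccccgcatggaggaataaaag
Lsr: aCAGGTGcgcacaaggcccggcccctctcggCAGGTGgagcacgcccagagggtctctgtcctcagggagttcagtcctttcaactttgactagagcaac
Spint2: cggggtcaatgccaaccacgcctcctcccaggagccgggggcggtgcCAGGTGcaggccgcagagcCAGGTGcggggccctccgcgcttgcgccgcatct

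Markers of host cells moved as well. Of 28 neutrophil markers 13 were higher and 2 lower (53.6%, beside the 20.7% of all genes), with list means of 6.71 to 6.97 in 4T1.2 against 6.01 to 6.05 in 67NR. With only clusters above the median signal tested, 7 were called. Retnlg (7.77, 8.01 and 8.61 against 5.77, 5.84 and 5.57) and BC100530 (3.13, adjusted p = 3.3e-06 from limma), a stefin family gene, were higher. The 2 lower markers were Fpr1 (-1.24) and Clec4d (-1.04). Csf3r, the receptor of the neutrophil growth factor, did not pass (-0.13, adjusted p = 0.77 from limma). Of 35 macrophage markers 4 were higher and 9 lower (37.1%), with list means of 8.53 to 8.61 against 8.68 to 8.82. Mgl2 (8.14, 8.16 and 8.38 against 5.57, 5.18 and 5.94), which encodes a lectin, was higher, as were Retnla (2.91), Gpnmb (2.01) and Cx3cr1 (0.56). The resident macrophage genes Vsig4 (-2.06) and Folr2 (-1.49) were lower. Neither of these passed in the one-way analysis of variance (adjusted p = 0.18 for both). The lysozyme gene Lyz1, which is on the same list but does not mark resident macrophages, was also lower (6.73, 5.34 and 6.48 against 9.98, 9.37 and 9.47). In addition, Lyve1, a marker of lymphatic vessels and some macrophages, was 6.18-fold lower (8.91, 8.12 and 7.76 against 10.96, 11.24 and 10.48), although the lymphatic regulator gene Prox1 did not pass, at means of 5.26 and 5.29. Of 24 endothelial markers 3 were higher and 4 lower (29.2%, median log2 difference -0.12). Eng, an endothelial BMP co-receptor, was higher by 1.65, with Apln (1.11) and Flt1 (0.94). Cd34 (-1.12), Tek (-0.61), Cdh5 (-0.4) and Sox18 (-0.34) were lower, and the vessel marker Pecam1 had a log2 difference of -0.11 (adjusted p = 0.67 from limma). When any 1 tumour was left out Sox18 did not pass, nor did Cdh5 except without 4T1.2 replicate 1. The endothelial count was 4 without 4T1.2 replicate 3 and without 67NR replicate 1.

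Of 32 T and NK cell markers, a list that holds Gzma and Gzmb, none was higher and 8 were lower (25.0%, beside the 20.7% of all genes), with list means of 6.16 to 6.25 in 4T1.2 and 6.56 to 6.94 in 67NR. The count was 5 without 4T1.2 replicate 1, without 4T1.2 replicate 3 and without 67NR replicate 1. Lymph node stroma genes averaged 6.10 to 6.12 in 4T1.2 tumours and 6.51 to 7.34 in 67NR, and 1 of 8 was called lower, or none without 4T1.2 replicate 3 or without 67NR replicate 1. Fibroblast markers had 8 of 26 higher and 3 lower (42.3%), with list means of 8.17 to 8.45 against 8.02 to 8.18. Of them 7 were called without 4T1.2 replicate 1, without 67NR replicate 1 or without 67NR replicate 3. Skeletal muscle genes, a sign of tissue around the tumour, had means of 5.46 to 5.62 and 5.43 to 5.58, under the array medians. The part of these cells in the differences of ligands, receptors and matrix genes was not tested.

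The same differences were set beside the other pair of related lines, EO771.LMB and EO771 tumours, which share no tumour with this comparison. For 2704 genes (12.3%) limma found that the 4T1.2 minus 67NR difference departed from the EO771.LMB minus EO771 difference. Within the EO771 pair 6 genes passed. Tslp, higher by 3.89 here, differed by -0.08 between EO771.LMB and EO771, and the departure was 3.97 (adjusted p = 1.6e-07). For Rorb the EO771 pair gave -0.06, for Bmp7 0.63 and for Adamts5 -0.96, in each case a smaller difference than in the 4T1 pair (adjusted p = 1.0e-10, 1.4e-04 and 6.2e-05 for the departure). Aspn had a log2 difference of 0.96 between EO771.LMB and EO771, against -3.66 between 4T1.2 and 67NR. The EO771 pair's difference did not pass for Aspn (adjusted p = 0.36 from limma), nor for Tslp, Rorb, Bmp7 or Adamts5.

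**Figure D5:**
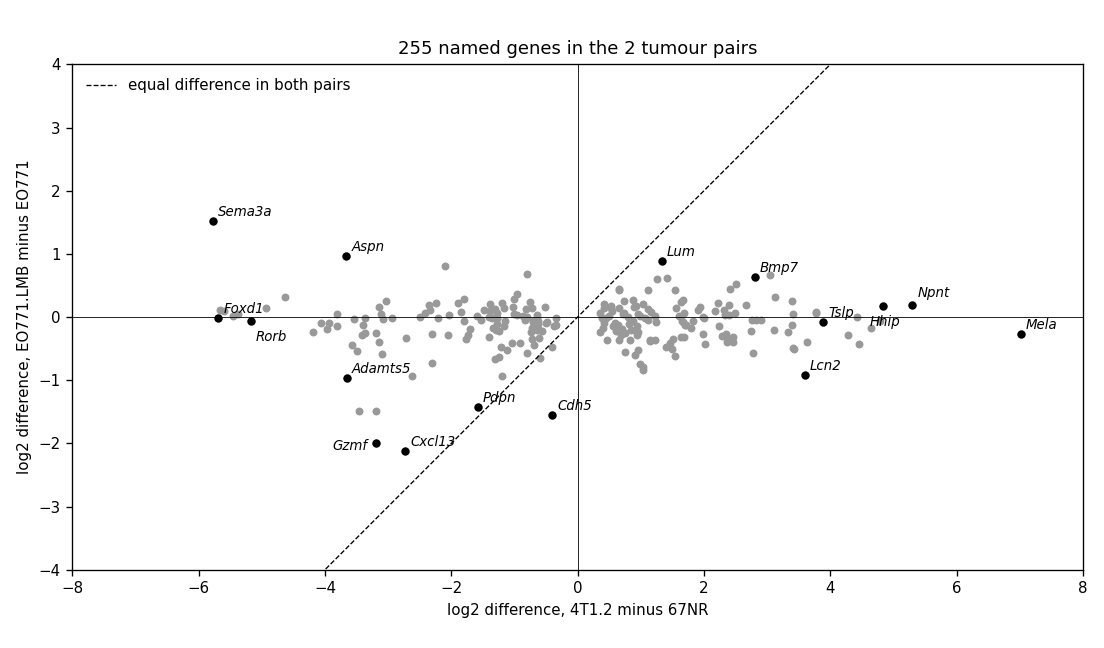
Log2 differences of 255 named genes in the 4T1 pair (4T1.2 minus 67NR, horizontal axis) and in the EO771 pair (EO771.LMB minus EO771, vertical axis), with the dashed line marking equal differences. The genes were picked for their differences on the horizontal axis, from Mela at 7.02 to Sema3a at -5.77, so the narrow spread on the vertical axis is a description only.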

How the data were processed

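Tumours were grouped by the tumour type in their titles, with 3 tumours from separate mice per type. The authors background-adjusted, quantile-normalised and summarised the probe intensities, and deposited the outcome for 35556 transcript clusters on a log2 scale. The methods name GCRMA, and the processing notes of the submitters Partek 6.6 with RMA, so the algorithm is not settled, and its effect was not tested. No further normalization or filter was applied. The series table was identical to 1 sheet of the deposited workbook (0 of 533340 values differed). Another 30 per-sample columns and the authors' own fold changes and p-values in other sheets were not used. With 3 arrays per type, their number sets the precision.

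A linear model of tumour type alone was fitted with limma 3.58.1 in R 4.3.3. It held all 15 tumours, so that the spread was estimated over every type, and p-values were corrected across the 35556 clusters by Benjamini-Hochberg. For 26 clusters the symbol column showed dates, so the symbol of every cluster that had one was taken from the gene assignment text. Of 1065 list entries 1056 were measured, 19 under an older symbol. Where the text names the EO771 pair, its difference was subtracted from that of the 4T1 pair in the same model. The steps were tested on simulated data.

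The families, lists, motifs and genes were chosen with earlier results of these data known. Named genes were, among those called whose tumour types did not overlap, the 8 with the largest difference in each direction over all genes and the 6 in each molecular role, and up to 4 called members per direction of each list, overlapping or not, leaving out genes that the paper names. Some genes that these rules take are not reported here. Their ligand and receptor partners and other family members were given beside them, some chosen after their values were seen. Alternatives were centring or quantile-normalising the arrays, only clusters above the median signal, only the 6 tumours, one-way analysis of variance as in the methods, an intensity trend with a robust prior, the mean of a gene's clusters, the tumour number as a replicate block and each tumour left out in turn.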

Additional observations from a re-analysis of the deposited data

Results flagged for a closer look

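The difference between 4T1.2 and 67NR tumours departed from that between EO771.LMB and EO771 tumours in 2704 genes (12.3% of those tested) by limma's test of the difference of differences. Among the 255 genes named for the 4T1 pair, 189 did so. These genes were picked for a large difference in the 4T1 pair, so that count is not independent evidence, and within the EO771 pair 6 genes passed.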

How the results depend on the processing

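The counts of 2153 higher and 2412 lower genes stayed within 1.5 times under centring, quantile normalization, the filter on low signals, the 6 tumours alone, the robust prior and the mean of a gene's clusters. The methods' one-way analysis of variance, run on the 6 tumours and without limma's shared spread, gave 904 higher (860 in common) and 876 lower (835 in common). Requiring a log2 difference of at least 1 left 519 and 559. With each tumour left out the counts ran from 1700 to 1904 higher and from 1833 to 2255 lower, and those of the difference between the pairs from 2230 to 2548 against 2704. The alternatives to that last count, which also gave 2740 with centring and 2820 with quantile normalization, were chosen after seeing the data. Tumour numbers did not pair the samples, since same-numbered tumours correlated at -0.00895, 0.082 and 0.149 in their deviations. With the number as a replicate block the counts were 2107 and 2337, of which 2027 and 2267 were in common. No named gene reversed. Of 255, 193 were tested in all 14 settings and 121 of these kept their call in each, and 62 fell under the filter on low signals, of which 42 kept their call in the other settings. The analysis of variance lost the call of 84 named genes, among them Gzmd and Hoxa5, and the 6 tumours alone lost 23. Of 110 families and lists, 23 counts moved by over 1.5 times when a tumour was left out, 3 with quantile normalization and 36 with fewer genes tested above the median signal. Signals near or under the array medians of 6.32 to 6.44 limit the differences of genes low in both types.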
